A study of Rattus norvegicus with 9 samples.

Results

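This comparison asked which genes still differed between rats with vascular dementia that had been treated with insulin (INS + VD) and untreated control rats (CK). A gene was taken where 3 or more of the 6 CK and INS + VD libraries held at least 0.5 FPKM, which left 14486 of the 21138 genes of the deposited table. FPKM gives the sequenced fragments of a gene relative to its length and to all mapped fragments. The study sequenced hippocampal RNA of male Sprague-Dawley rats, labelled wild type and 6 months old at purchase, as 9 libraries, 3 each of CK, VD and INS + VD, at day 56. CK rats received saline by the intranasal route and no ligation, INS + VD rats had both common carotid arteries ligated and were given insulin into the nose at 1 U/kg daily, and VD rats had the same ligation with saline. INS + VD thus differed from CK by the operation itself, by the ligation and by the insulin, and their parts cannot be told apart in this comparison. The study's sham-operated rats are not among the 9 libraries. VD values are given beside some genes for orientation, and since VD is set against the same CK libraries, no comparison of the 2 contrasts was made. The study's methods call the samples of a group biological replicates.

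Ligation of both common carotid arteries lowers blood flow to the forebrain for weeks without a local infarct in most of the brain. The hippocampus, which holds the pyramidal cells of Ammon's horn and the granule cells of the dentate gyrus, is sensitive to low perfusion, and its astrocytes and microglia respond by expressing intermediate filament, complement and antigen presentation genes. Cells under protein folding stress induce chaperones, the proteins that fold or refold other proteins in the cytosol and in the endoplasmic reticulum.

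Libraries of one group differed from each other. The FPKM of a library summed to 453716 to 486754 over the 6 libraries, and 17441 to 17973 genes were above 0. The table gives no counts, but the steps between its lowest values put the mapped fragments of the 6 libraries at 0.948 to 1.02 of those of CK replicate 1. The first principal component (53.3% of the variance of the 6 libraries) set CK replicate 3 apart and the second (24.7%) set INS + VD replicate 2 apart. The 3 cerebellar genes Gabra6, Cbln3 and Pcp2 stood at 501, 321 and 276 FPKM in CK replicate 3 and at no more than 1.0 FPKM in the other 5 libraries. The cerebellum list averaged 6.85 on the log2(FPKM + 1) scale in CK replicate 3 and 2.27 to 2.63 in the others. Markers of hippocampal excitatory neurons averaged 3.63 in CK replicate 3 and 3.28 in INS + VD replicate 2, against 5.20 to 5.42 in the other 4 libraries. Slc17a7, the vesicular glutamate transporter of these neurons, was at 740.0, 585 and 361 FPKM in CK and 504, 0.766 and 627 FPKM in the INS + VD libraries. Thalamus and hypothalamus markers were highest in INS + VD replicate 2, and Ttr, which encodes transthyretin of the choroid plexus, was at 0.0793, 1.14 and 0.836 FPKM in CK and 1635, 2.18 and 0.567 FPKM in the INS + VD libraries. The labelled tissue, hippocampus, therefore did not show in the same proportion in all 6 libraries, and the medians of the gene lists below are also given without CK replicate 3 and INS + VD replicate 2. In bulk samples, fewer cells of a type and less RNA per cell cannot be told apart.

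**Figure D1:**
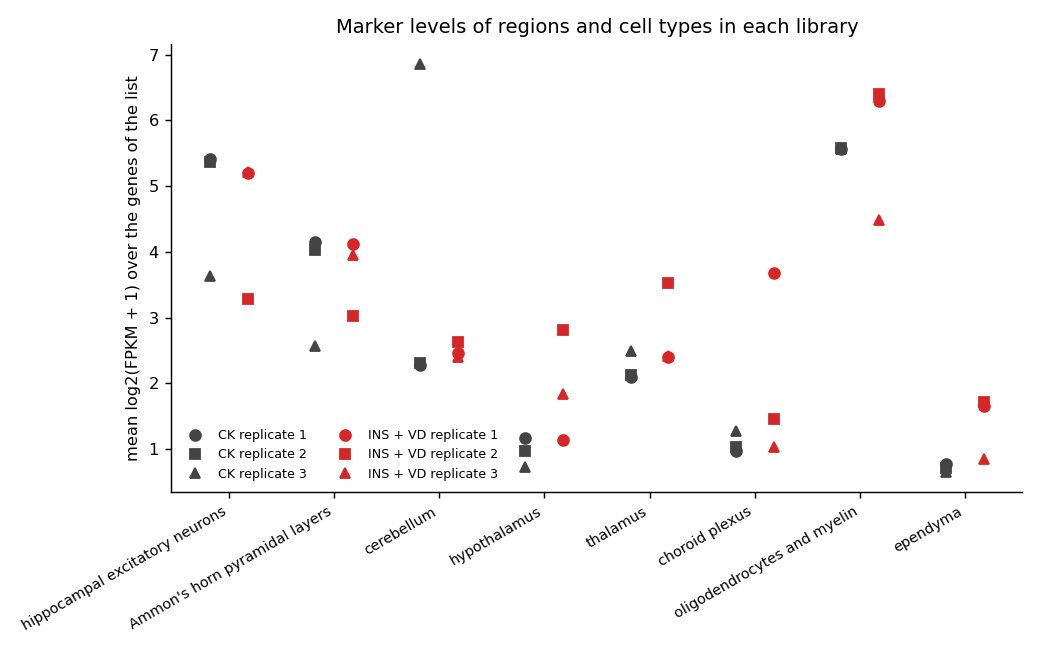
Mean log2(FPKM + 1) of 8 lists of region and cell type markers (y axis) in each CK (grey) and INS + VD (red) library, with the symbol giving the replicate. CK replicate 3 stood at 6.85 for the cerebellum list and INS + VD replicate 1 at 3.67 for the choroid plexus list, each far above the other libraries.

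No gene passed the test of the study, which asked for an adjusted p of 0.05 or less and a log2 fold change of 1 or more in either direction, in limma on log2(FPKM + 1). The smallest adjusted p was 0.425, so that no single gene can be called different between INS + VD and CK after correction for 14486 tests. At the unadjusted p of 0.05 with the same fold change, 187 genes (1.29%) were called, 122 higher (0.842%) and 65 lower (0.449%) in INS + VD. Without a minimum fold change, the unadjusted p was met by 628 genes (4.34%), 388 of them higher (2.68%) and 240 lower (1.66%). The groups did not overlap for 1592 genes (11%), 819 with INS + VD above CK (5.65%) and 773 below (5.34%). Of the 187 called genes, 15 stayed under 0.5 FPKM in all 3 libraries of one group and were kept through the other group, where they had to be high. The median log2 fold change of all genes kept was close to 0, at -0.00475, and the genes below are described by these unadjusted values. For counts of list members at the unadjusted p in all 6 libraries, the shares of all genes are 2.68% higher and 1.66% lower. With libraries left out, the number over all 14486 genes moved as well. In either direction it was 628 in all 6 libraries and 858 without CK replicate 3 and INS + VD replicate 2. With 1 library left out it ran from 469 (INS + VD replicate 2) to 818 (INS + VD replicate 3).

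**Figure D2:**
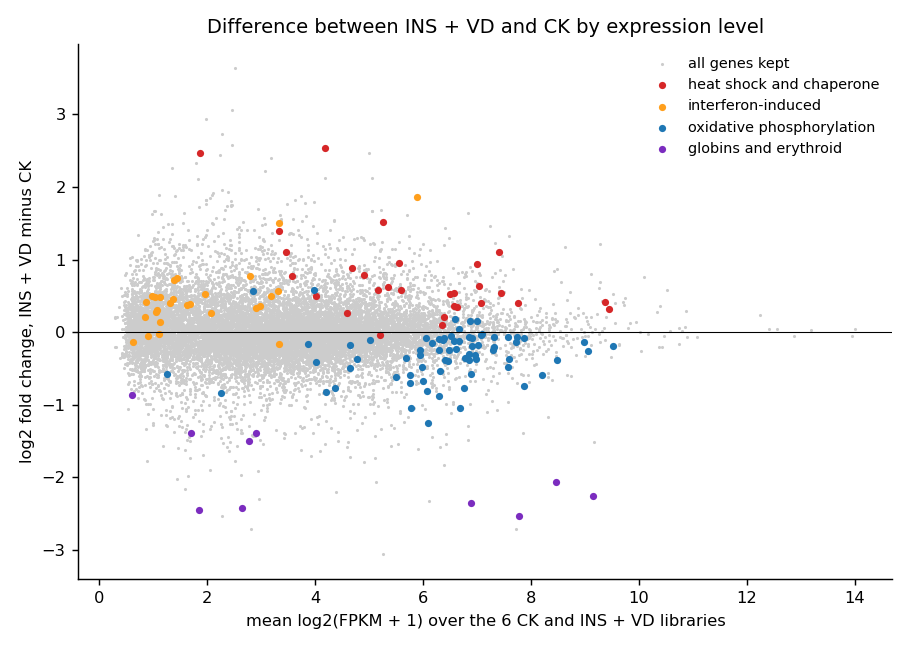
Log2 fold change of INS + VD over CK (y axis) against the mean log2(FPKM + 1) of the 6 libraries (x axis) for the 14486 genes kept, with 4 groups of genes coloured. Heat shock and chaperone genes lie mostly above 0, with 28 of 29 higher, and the 10 globin and erythroid genes lie below 0.

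Chaperone genes stood higher in INS + VD. Of the 29 heat shock and chaperone genes kept, 28 had a higher mean in INS + VD (all genes 49.2%), 14 met the unadjusted p in that direction (all genes 2.68%) and none in the other. The median log2 fold change of the list was 0.58, and 0.40 without CK replicate 3 and INS + VD replicate 2, where 14 members met the unadjusted p. That number was 8 with CK replicate 1 or INS + VD replicate 2 left out. Here and below, libraries joined by "or" were left out 1 at a time. Hspb1, a small heat shock protein that holds unfolded proteins and is found in reactive astrocytes, was at 6.2, 8.71 and 5.2 FPKM in CK and 24.6, 80.7 and 40 FPKM in the INS + VD libraries (log2 fold change 2.54, SE 0.43, unadjusted p = 0.0008). The table places Hspb1 (ENSRNOG00000023546) at chr12:23839400-23841000 and Hspa5 (ENSRNOG00000018294) at chr3:13838300-13842800, without naming a build. Every INS + VD library exceeded every CK library, with INS + VD replicate 2 the highest, and VD libraries were at 30.1, 70.7 and 14.9 FPKM. Hspa1b, the stress-inducible Hsp70, was at 0.521, 0.372 and 0.788 FPKM in CK and 2.72, 18.3 and 7.72 FPKM in the INS + VD libraries (log2 fold change 2.46, SE 0.57, unadjusted p = 0.00403). The VD libraries, at 1.28, 0.854 and 1.45 FPKM, all lay below the lowest INS + VD library. Dnajb1, the partner of Hsp70, was at 32.2, 32.9 and 33.4 FPKM in CK and 48.5, 85.1 and 64.7 FPKM in the INS + VD libraries (log2 fold change 0.95, SE 0.23, unadjusted p = 0.00456). The most abundant cytosolic chaperones differed less. Hspa8, the constitutive Hsp70, had a log2 fold change of 0.32 (SE 0.24, unadjusted p = 0.221), and Hsp90ab1, the constitutive Hsp90, of 0.42 (SE 0.23, unadjusted p = 0.12).

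Members that work in the endoplasmic reticulum were also higher. Hspa5, the main Hsp70 of the endoplasmic reticulum, was at 109.7, 110.1 and 126 FPKM in CK and 199.6, 302 and 254 FPKM in the INS + VD libraries (log2 fold change 1.10, SE 0.20, unadjusted p = 0.00117), and the VD libraries were at 159.9, 132 and 203 FPKM. Hsp90b1, its Hsp90, was at 112, 106 and 93.2 FPKM in CK and 145, 185 and 159.9 FPKM in the INS + VD libraries (log2 fold change 0.64, SE 0.17, unadjusted p = 0.00784). Pdia4, a protein disulfide isomerase, was at 17.6, 18.2 and 17.8 FPKM in CK and 27.2, 45 and 31.4 FPKM in the INS + VD libraries (log2 fold change 0.88, SE 0.22, unadjusted p = 0.00544), with the 2 groups apart as for Hspa5 and Hsp90b1. Calr, the calcium-binding chaperone calreticulin, differed by 0.40 (SE 0.16, unadjusted p = 0.0412). A set of 6 endoplasmic reticulum stress genes, put together after the values were seen, had a median of 0.56. Of these 5 had a higher mean (all genes 49.2%) and 1 a lower one, and 2 met the unadjusted p (all genes 2.68%). Xbp1, a transcription factor of the unfolded protein response, and Herpud1, a membrane protein of endoplasmic reticulum degradation, were chosen after their values were seen. Xbp1 was at 62.8, 64.7 and 61.8 FPKM in CK and 92.1, 110.1 and 109 FPKM in the INS + VD libraries (log2 fold change 0.70, SE 0.15, unadjusted p = 0.00265). Herpud1 was at 20.6, 24.5 and 33.2 FPKM in CK and 45, 64.7 and 39.9 FPKM in the INS + VD libraries (log2 fold change 0.90, SE 0.26, unadjusted p = 0.0113). Pdia4 and Hsp90b1 are listed chaperones named here after their values were seen.

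**Figure D3:**
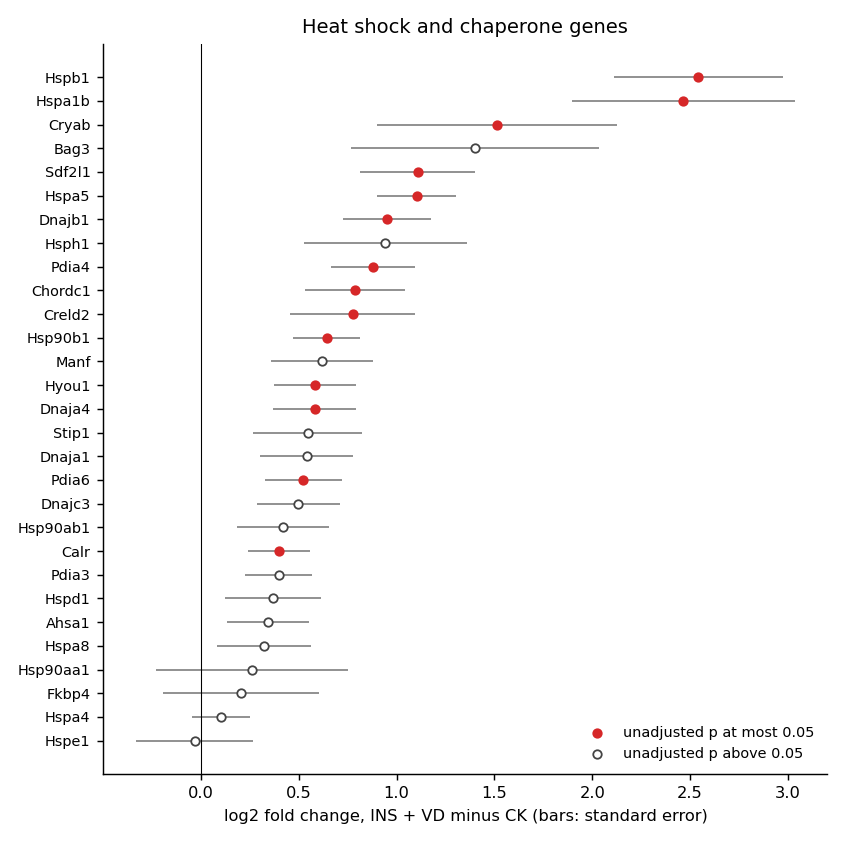
Log2 fold change of INS + VD over CK with its standard error (x axis) for the 29 heat shock and chaperone genes kept (y axis). The filled points, 14 genes, meet the unadjusted p of 0.05, and Hspb1 (2.54) and Hspa1b (2.46) lie farthest from 0.

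Promoters of 5 of these and the following genes are shown because they hold the elements through which such genes are known to be induced. They run from 250 bases before to 50 bases after the start of the gene, 5′ to 3′ on the strand of the gene, as RefSeq gives them for GRCr8, and 1 promoter was found per gene. The element is in capitals on whichever strand it matched. The endoplasmic reticulum stress element was searched as CCAAT and CCACG with 9 bases of any kind between them, and the heat shock element as GAA and TTC with 2 between them. The interferon-stimulated element was searched as GAAA and GAAA with 2 bases between them and the cAMP response element as TGACGTCA. Both strands were searched. Among 33469 promoters of this length they were found in 0.0657%, 8.59%, 3.92% and 1.83%. Hspa5 lies at chr3:38452766-38453065 (plus strand), Hsp90b1 at chr7:23012244-23012543 (minus), Hspb1 at chr12:26432252-26432551 (minus), Ifi27 at chr6:128355062-128355361 (plus) and Ier2 at chr19:40399123-40399422 (plus).
Hspa5 (endoplasmic reticulum stress element): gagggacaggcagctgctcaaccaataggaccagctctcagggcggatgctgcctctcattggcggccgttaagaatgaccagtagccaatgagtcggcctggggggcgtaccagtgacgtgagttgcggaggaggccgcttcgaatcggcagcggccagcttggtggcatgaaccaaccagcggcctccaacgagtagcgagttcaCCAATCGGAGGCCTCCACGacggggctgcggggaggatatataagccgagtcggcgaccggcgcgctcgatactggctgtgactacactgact
Hsp90b1 (endoplasmic reticulum stress element): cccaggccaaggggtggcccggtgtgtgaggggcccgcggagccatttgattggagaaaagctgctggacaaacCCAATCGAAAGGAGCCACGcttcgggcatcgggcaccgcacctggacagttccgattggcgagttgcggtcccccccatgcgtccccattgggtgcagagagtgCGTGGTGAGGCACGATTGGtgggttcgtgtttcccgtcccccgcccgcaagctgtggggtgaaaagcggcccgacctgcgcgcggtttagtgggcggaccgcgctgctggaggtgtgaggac
Hspb1 (heat shock element): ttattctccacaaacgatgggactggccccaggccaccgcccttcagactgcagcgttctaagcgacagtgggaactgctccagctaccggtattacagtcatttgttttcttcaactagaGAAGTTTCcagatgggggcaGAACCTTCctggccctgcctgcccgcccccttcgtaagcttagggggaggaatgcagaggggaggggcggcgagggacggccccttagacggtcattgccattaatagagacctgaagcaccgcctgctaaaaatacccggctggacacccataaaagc
Ifi27 (interferon-stimulated element): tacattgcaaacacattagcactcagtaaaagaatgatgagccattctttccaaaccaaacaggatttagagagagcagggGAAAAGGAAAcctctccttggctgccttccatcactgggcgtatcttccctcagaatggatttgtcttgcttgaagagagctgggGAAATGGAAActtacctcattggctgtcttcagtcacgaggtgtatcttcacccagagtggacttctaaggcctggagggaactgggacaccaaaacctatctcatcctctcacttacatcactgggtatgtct
Ier2 (cAMP response element): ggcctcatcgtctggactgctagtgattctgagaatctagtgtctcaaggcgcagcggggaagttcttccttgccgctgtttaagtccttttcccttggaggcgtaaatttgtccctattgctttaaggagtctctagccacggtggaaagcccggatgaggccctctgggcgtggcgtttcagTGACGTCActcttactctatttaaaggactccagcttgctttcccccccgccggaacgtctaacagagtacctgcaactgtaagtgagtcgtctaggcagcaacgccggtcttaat
Of the 23 heat shock and chaperone genes with a promoter in the tables, 10 held the heat shock element and 5 the endoplasmic reticulum stress element, and of 18 interferon-induced genes 13 held the interferon-stimulated element. The heat shock element was also in 5 of 15 antigen presentation, 3 of 18 interferon-induced and 3 of 31 immediate early promoters. The interferon-stimulated element was also in 7 of 15 antigen presentation and 3 of 31 immediate early promoters. The cAMP response element was in 4 of 31 immediate early promoters. It was also in 1 of 15 antigen presentation, 1 of 23 heat shock and chaperone and 0 of 18 interferon-induced promoters. The endoplasmic reticulum stress element was in no antigen presentation, interferon-induced or immediate early promoter. A match is a description of letters and not of binding.

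Interferon-induced and antigen presentation genes were higher in part. Of the 27 interferon-induced genes 23 had a higher mean in INS + VD (all genes 49.2%), the median was 0.41 and 5 met the unadjusted p (all genes 2.68%). The last number was 2 with CK replicate 1, INS + VD replicate 1 or INS + VD replicate 2 left out, 3 with CK replicate 2 left out and 8 with INS + VD replicate 3 left out. The median was 0.25 with INS + VD replicate 2 left out and 0.63 with INS + VD replicate 3 left out. All 16 antigen presentation genes had a higher mean (median 0.45), and 4 met the unadjusted p, or 2 with INS + VD replicate 1 left out. Without CK replicate 3 and INS + VD replicate 2 the medians were 0.33 and 0.38, with 3 genes higher at the unadjusted p in each list and 1 antigen presentation gene lower. Ifi27, an interferon-induced protein of the mitochondrial and nuclear membranes whose promoter is printed above, was at 32.8, 25.5 and 33.1 FPKM in CK and 132, 123 and 87.7 FPKM in the INS + VD libraries (log2 fold change 1.86, SE 0.22, unadjusted p = 8.2e-05). The groups stood apart, and the VD libraries were at 709, 159 and 109 FPKM. Cd74, the invariant chain of MHC class II, was at 4.99, 5.3 and 3.92 FPKM in CK and 17.1, 13.1 and 11.5 FPKM in the INS + VD libraries (log2 fold change 1.37, SE 0.22, unadjusted p = 0.00058), with VD at 103, 14.9 and 83.9 FPKM. Bst2, the antiviral tetherin, was at 3.19, 7.99 and 4.76 FPKM in CK and 14.9, 27.2 and 9.97 FPKM in the INS + VD libraries (log2 fold change 1.5, SE 0.43, unadjusted p = 0.0111). Ifi44 and Ifih1, a cytosolic sensor of viral RNA, differed by 0.75 (SE 0.30) and 0.49 (SE 0.19), with unadjusted p of 0.0429 and 0.0417. Psmb9, a subunit of the immunoproteasome, and Tap1, the peptide transporter of MHC class I, differed by 0.85 (SE 0.24) and 0.67 (SE 0.22). B2m, the light chain of MHC class I, was at 92.2, 125 and 143 FPKM in CK and 159, 225 and 122 FPKM in the INS + VD libraries, and the groups overlapped. Lgals3bp, a secreted galectin-binding glycoprotein that the naming rule selected, was at 4.27, 3.59 and 2.72 FPKM in CK and 12.6, 9.99 and 10.2 FPKM in the INS + VD libraries (log2 fold change 1.40, SE 0.22, unadjusted p = 0.00044).

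**Figure D4:**
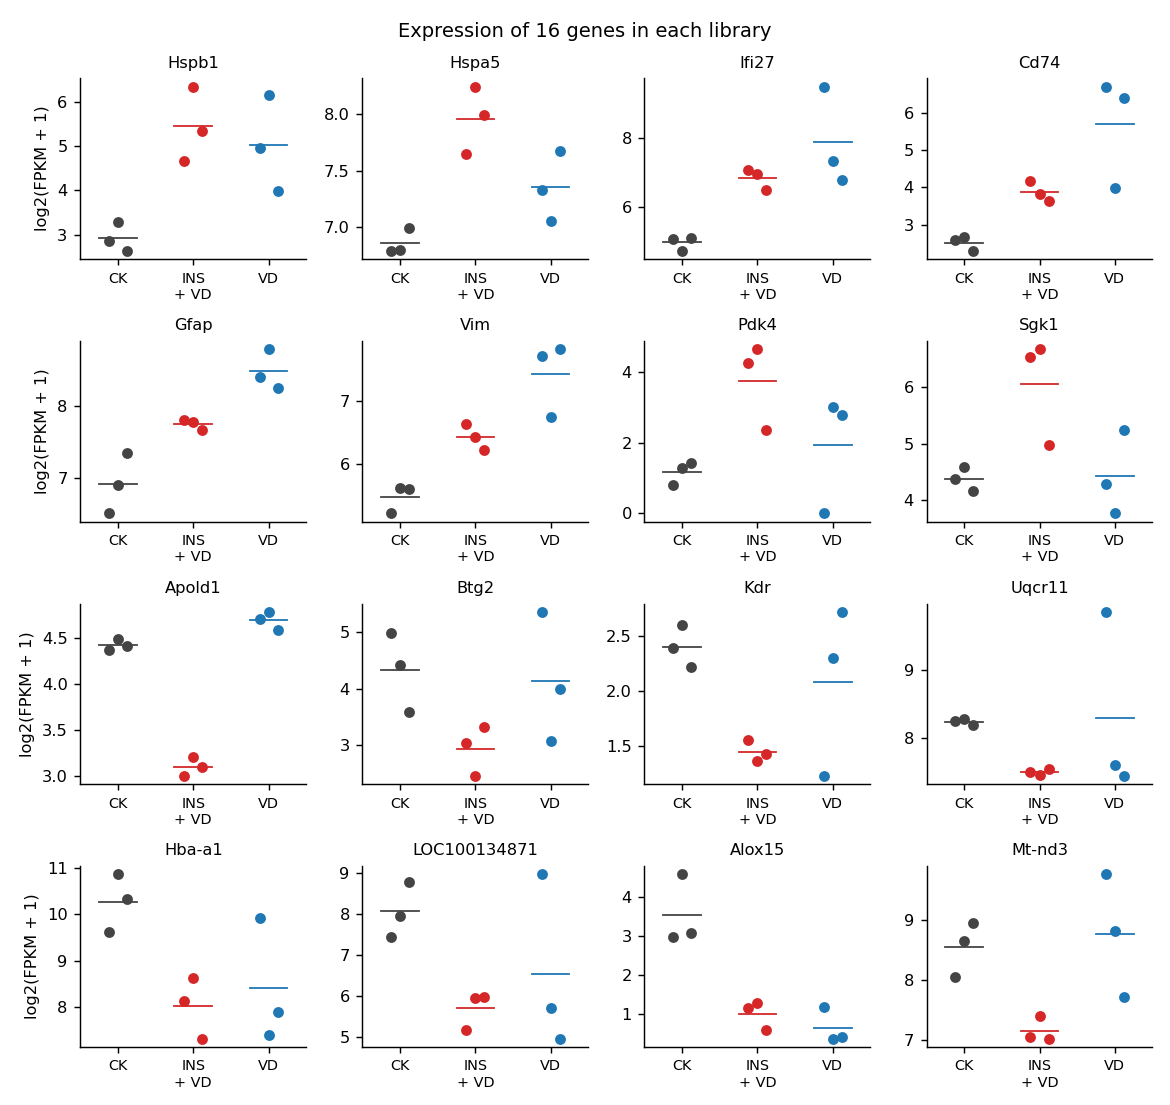
Log2(FPKM + 1) (y axis) of 16 genes in each library of CK (grey), INS + VD (red) and VD (blue), with points for libraries and lines for group means. In the 8 genes of the top 2 rows every INS + VD library exceeded every CK library, and in the 8 genes of the lower rows every INS + VD library lay below every CK library.

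Most listed genes of reactive astrocytes followed the same direction. Of the 18 listed genes kept 13 had a higher mean (all genes 49.2%) and 8 met the unadjusted p, all higher (all genes 2.68%). The median was 0.43, and 0.40 with 5 genes at the unadjusted p without the 2 libraries named above. The number at the unadjusted p was also 5 with CK replicate 1, INS + VD replicate 1 or INS + VD replicate 2 left out. The members at the unadjusted p in all 6 libraries include Hspb1, named above as a chaperone, and Fkbp5, named below as glucocorticoid-responsive. They also include C3 and Serping1, which are counted again among the complement genes below. Gfap, the intermediate filament of astrocytes, was at 90.2, 119 and 162 FPKM in CK and 222, 218 and 201 FPKM in the INS + VD libraries (log2 fold change 0.82, SE 0.24, unadjusted p = 0.0118), and VD at 338, 440.3 and 304 FPKM. Vim, the filament vimentin, was at 36.5, 48.3 and 48.1 FPKM in CK and 97.9, 85.5 and 73.6 FPKM in the INS + VD libraries (log2 fold change 0.94, SE 0.19, unadjusted p = 0.00213). Cd44, a hyaluronan receptor, was at 1.47, 1.19 and 1.3 FPKM in CK and 3.22, 3.04 and 2.6 FPKM in the INS + VD libraries (log2 fold change 0.77, SE 0.18, unadjusted p = 0.00441). For these 3 genes no CK library reached an INS + VD library. The 5 listed genes with a lower mean were Lcn2 (log2 fold change -0.18), Srgn (-0.18), Emp1 (-0.14), Stat3 (-0.11) and S1pr3 (-0.003). None of them met the unadjusted p. Astrocyte markers that are not tied to reactivity also leaned higher, with a median of 0.21 (0.17 without the 2 libraries). Of these, 23 of 27 had a higher mean (all genes 49.2%) and 1 met the unadjusted p. Gja1, the astrocyte gap junction protein connexin 43, was that gene at 83, 114 and 59.6 FPKM in CK and 138, 147 and 137 FPKM in the INS + VD libraries (log2 fold change 0.76, SE 0.25, unadjusted p = 0.0202). The part of astrocyte number in the differences of astrocyte genes was not tested. The plain microglia list had a median of 0.32, which turned to -0.09 without CK replicate 3 and INS + VD replicate 2, so that its direction depended on them.

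Complement genes had a median of 0.47, with 16 of 18 higher (all genes 49.2%) and 5 higher at the unadjusted p (all genes 2.68%). Without the 2 libraries the median was 0.14 and no member met the unadjusted p. The number at the unadjusted p was 0 with INS + VD replicate 2 left out, 1 with INS + VD replicate 1 left out and 2 with CK replicate 1, CK replicate 2 or CK replicate 3 left out, and the median 0.26 with CK replicate 3 left out. C3, the central complement component, was at 0.889, 1.49 and 1.64 FPKM in CK and 7.77, 5.38 and 1.7 FPKM in the INS + VD libraries (log2 fold change 1.20, SE 0.45, unadjusted p = 0.0334). INS + VD replicate 3 was close to the CK libraries and the other 2 stood well above them. The list of osteopontin and phagocytic glia had a median of 0.34, with 4 of 17 genes higher at the unadjusted p (all genes 2.68%). Without the 2 libraries the median was 0.18, with 1 higher and 1 lower at the unadjusted p. The number higher was 0 with INS + VD replicate 1 left out, 1 with CK replicate 3 left out and 2 with CK replicate 1 or INS + VD replicate 2 left out. In this list Apoe, the lipid carrier apolipoprotein E, was at 754, 1159.9 and 683 FPKM in CK and 1277, 1698 and 1338 FPKM in the INS + VD libraries (log2 fold change 0.76, SE 0.28, unadjusted p = 0.0325). Lgals3, galectin-3, was at 0.665, 0.474 and 0.81 FPKM in CK and 1.96, 1.46 and 1.31 FPKM in the INS + VD libraries (log2 fold change 0.64, SE 0.19, unadjusted p = 0.0144). Ctsz, a lysosomal protease, differed by 0.75 (SE 0.27). Spp1, osteopontin, was at 4.83, 0.0752 and 1.58 FPKM in CK and 1.37, 64.1 and 1.38 FPKM in the INS + VD libraries and VD at 64.9, 121 and 192 FPKM, with 1 INS + VD library, replicate 2, high and the groups overlapping.

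Among hypoxia response genes 6 of 28 met the unadjusted p, all higher (all genes 2.68%). The list median was 0.22, 0.19 without the 2 libraries and 0.13 with INS + VD replicate 2 left out, and 9 members had a lower mean. Pdk4, a kinase that turns off pyruvate dehydrogenase, was at 0.742, 1.42 and 1.68 FPKM in CK and 18, 23.9 and 4.15 FPKM in the INS + VD libraries (log2 fold change 2.58, SE 0.59, unadjusted p = 0.00389). INS + VD replicate 3 was the lowest of its group and still above CK. P4ha1, a collagen prolyl hydroxylase subunit, was at 18.2, 19.8 and 12.9 FPKM in CK and 31.3, 52.9 and 33.5 FPKM in the INS + VD libraries (log2 fold change 1.15, SE 0.27, unadjusted p = 0.00427). Ndrg1, a stress-induced gene of glia, was at 30.9, 29.3 and 28.5 FPKM in CK and 82.5, 105 and 41.8 FPKM in the INS + VD libraries (log2 fold change 1.24, SE 0.33, unadjusted p = 0.00852). Adm, the vasodilator adrenomedullin, was at 0.801, 0.412 and 0.676 FPKM in CK and 2.2, 1.93 and 1.39 FPKM in the INS + VD libraries (log2 fold change 0.80, SE 0.21, unadjusted p = 0.00687). Ddit4, an inhibitor of mTOR, was at 40, 47 and 68.3 FPKM in CK and 86.8, 111 and 78.5 FPKM in the INS + VD libraries (log2 fold change 0.84, SE 0.25, unadjusted p = 0.0131), and in all 5 the groups stood apart. Ddit4 and Pdk4 are also glucocorticoid-responsive, as are 3 genes chosen after their values were seen. Sgk1, a kinase, was at 19.7, 23 and 16.9 FPKM in CK and 91.5, 101 and 30.7 FPKM in the INS + VD libraries (log2 fold change 1.69, SE 0.45, unadjusted p = 0.00841). Fkbp5, a co-chaperone of the glucocorticoid receptor, was at 15.9, 15.9 and 7.11 FPKM in CK and 34, 21.1 and 24.4 FPKM in the INS + VD libraries (log2 fold change 1.03, SE 0.35, unadjusted p = 0.0226). Tsc22d3, which encodes GILZ, overlapped between the groups at 30.4, 41.3 and 52 FPKM in CK and 79, 115 and 47.4 FPKM in the INS + VD libraries (log2 fold change 0.89, SE 0.36, unadjusted p = 0.0443). Mt2A, a metallothionein that glucocorticoids also induce, was lower in INS + VD at 29.7, 35.8 and 35 FPKM in CK and 19.8, 16.9 and 5.35 FPKM in the INS + VD libraries (log2 fold change -1.37, SE 0.45, unadjusted p = 0.0201), so that genes of this kind did not share a direction.

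Ccdc153 and Cfap77, genes of motile cilia, were higher. Ccdc153, a gene of ependymal cilia, was at 0.30, 0.077 and 0 FPKM in CK and 3.73, 6.07 and 1.15 FPKM in the INS + VD libraries (log2 fold change 1.89, SE 0.44, unadjusted p = 0.00396). Cfap77, an axonemal gene chosen after its values were seen, was at 0.605, 0.393 and 0 FPKM in CK and 1.62, 1.94 and 1.69 FPKM in the INS + VD libraries. Each INS + VD library was above each CK library in both genes, and Ccdc153 was kept through its INS + VD libraries alone. The ependyma list held 6 genes kept and had a median of 0.64, which was 0.27 with INS + VD replicate 2 left out and 0.31 without that library and CK replicate 3. Its mean level was 1.65, 1.71 and 0.85 in INS + VD and 0.66 to 0.78 in CK. The choroid plexus marker Ttr was high in INS + VD replicate 1 alone, and the part of ventricular tissue in the cilia genes was not tested. The hypothalamic peptides Hcrt (orexin) and Oxt (oxytocin) were low throughout. Hcrt was at 0.0996, 0 and 0 FPKM in CK and 2.27, 0.783 and 2.03 FPKM in the INS + VD libraries. Oxt was at 0.104, 0.428 and 0.659 FPKM in CK and 1.84, 6.55 and 1.49 FPKM in the INS + VD libraries. For both every INS + VD library exceeded every CK library, and Hcrt was kept through INS + VD alone. In the whole hypothalamus list, all 17 genes kept had a higher mean in INS + VD (all genes 49.2%). The groups did not overlap for 2 of the 17, with INS + VD higher (all genes 5.65%). The markers of hypothalamus were highest in INS + VD replicate 2, as was Oxt, whereas Hcrt was lowest there among the INS + VD libraries.

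Several genes with the largest fold changes rested on some libraries only. Nhp2, a small nucleolar ribonucleoprotein, was at 0.584, 0.257 and 0.44 FPKM in CK and 0.779, 21.7 and 31 FPKM in the INS + VD libraries (log2 fold change 2.94, SE 1.04, unadjusted p = 0.028). Srm, spermidine synthase, was at 1.07, 0.765 and 0.833 FPKM in CK and 1.49, 25.4 and 28.8 FPKM in the INS + VD libraries (log2 fold change 2.73, SE 0.93, unadjusted p = 0.0234). Pcsk1n, the inhibitor proSAAS, was at 0.426, 0.73 and 0.524 FPKM in CK and 1.18, 21.4 and 8.77 FPKM in the INS + VD libraries (log2 fold change 2.33, SE 0.79, unadjusted p = 0.0233). INS + VD replicate 1 lay near CK for these 3 genes while replicates 2 and 3 were many times higher. Crabp1, which binds retinoic acid, was at 3.19, 2.46 and 0 FPKM in CK and 3.31, 16.9 and 10.1 FPKM in the INS + VD libraries, with INS + VD replicate 1 again close to CK. Rerg, a small GTPase, was at 2.91, 2.47 and 0.404 FPKM in CK and 8.2, 9.88 and 9.46 FPKM in the INS + VD libraries (log2 fold change 1.93, SE 0.41, unadjusted p = 0.00253). Bhlhe41, a circadian transcription factor, was at 24.1, 27.6 and 31.2 FPKM in CK and 50.4, 66.1 and 56.9 FPKM in the INS + VD libraries (log2 fold change 1.04, SE 0.18, unadjusted p = 0.00087). For these last 2 all 3 INS + VD libraries were alike and apart from CK.

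Globins were among the lower genes with large fold changes. Hba-a1, an adult alpha globin, was at 784, 1861 and 1295 FPKM in CK and 279.8, 391 and 158 FPKM in the INS + VD libraries (log2 fold change -2.25, SE 0.44, unadjusted p = 0.00172). Hba-a2 was at 281, 807 and 649 FPKM in CK and 87.3, 154 and 54.2 FPKM in the INS + VD libraries (log2 fold change -2.54, SE 0.52, unadjusted p = 0.00207). LOC100134871, a beta globin, was at 172, 248 and 441 FPKM in CK and 35.3, 61.1 and 62.1 FPKM in the INS + VD libraries (log2 fold change -2.36, SE 0.39, unadjusted p = 0.00072). In these 3 genes the highest INS + VD library was below the lowest CK library, while the VD libraries of Hba-a1, at 965, 168 and 236 FPKM, spanned both. Alas2, the erythroid enzyme of heme synthesis, was at 6.2, 16.8 and 11 FPKM in CK and 3.03, 3.97 and 2.4 FPKM in the INS + VD libraries (log2 fold change -1.5, SE 0.36, unadjusted p = 0.00504). Slc4a1, the anion exchanger of red cells, was at 0.667, 2.1 and 0.703 FPKM in CK and 0.107, 0.158 and 0.129 FPKM in the INS + VD libraries (log2 fold change -0.87, SE 0.28, unadjusted p = 0.018). All 10 globin and erythroid genes had a lower mean and 9 met the unadjusted p (all genes 1.66%), with a median of -2.16 and of -1.86 without CK replicate 3 and INS + VD replicate 2. This set was put together after the values were seen, and near-identical globin genes share fragments, so that the split between copies is uncertain. Slc4a1 was kept through its CK libraries alone. Alox15, a lipoxygenase, was at 6.79, 22.8 and 7.5 FPKM in CK and 1.23, 1.46 and 0.513 FPKM in the INS + VD libraries (log2 fold change -2.52, SE 0.47, unadjusted p = 0.0013), and VD at 1.26, 0.30 and 0.337 FPKM. Selenow, a small selenoprotein, was at 80.1, 45.2 and 364 FPKM in CK and 16.8, 11.3 and 9.78 FPKM in the INS + VD libraries (log2 fold change -3.06, SE 0.73, unadjusted p = 0.00473), with CK replicate 3 far above the other CK libraries.

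Apold1, an endothelial gene that is also induced at once by stimulation, (ENSRNOG00000007830, at chr4:168752000-168755000 in the table) had libraries that lay close together within each group. It was at 19.6, 21.3 and 20.2 FPKM in CK and 7.0, 8.2 and 7.56 FPKM in the INS + VD libraries (log2 fold change -1.32, SE 0.16, unadjusted p = 0.00011), and the VD libraries were at 25, 26.5 and 23 FPKM. The SD was 0.864 FPKM in CK and 0.602 FPKM in INS + VD. Kdr, the receptor of vascular endothelial growth factor, was at 4.24, 5.03 and 3.66 FPKM in CK and 1.95, 1.57 and 1.69 FPKM in the INS + VD libraries (log2 fold change -0.95, SE 0.20, unadjusted p = 0.00222). Egfl7, an endothelial secreted protein, was at 12.5, 13.2 and 9.26 FPKM in CK and 6.1, 6.3 and 3.9 FPKM in the INS + VD libraries (log2 fold change -0.98, SE 0.25, unadjusted p = 0.00594). The endothelium list as a whole had a median of -0.13 (-0.23 without CK replicate 3 and INS + VD replicate 2) with 10 of 25 genes higher in mean and 3 lower at the unadjusted p. The median was -0.21 with INS + VD replicate 2 left out, -0.02 with INS + VD replicate 3 left out and 0.01 with CK replicate 2 left out. The basement membrane collagens Col4a1 and Col4a2 were also lower. Col4a1 was at 10.6, 12.5 and 13 FPKM in CK and 8.02, 6.33 and 6.82 FPKM in the INS + VD libraries. Col4a2 was at 9.57, 11.5 and 8.79 FPKM in CK and 6.97, 5.57 and 6.34 FPKM in the INS + VD libraries. Pdgfrb, the pericyte receptor, was at 5.32, 6.64 and 5.28 FPKM in CK and 4.28, 2.91 and 3.5 FPKM in the INS + VD libraries (log2 fold change -0.57, SE 0.21, unadjusted p = 0.032). The pericyte and smooth muscle list did not follow Pdgfrb, with a median of 0.13 (0.07 without the 2 libraries), 14 of 22 genes higher in mean, and 1 higher and 1 lower at the unadjusted p. In all 6 vessel genes named in this paragraph the groups did not overlap, but the choice of named genes favours a small p and groups that stand apart. In the whole lists, the groups did not overlap, with INS + VD lower, for 4 of 25 endothelium and 1 of 22 pericyte and smooth muscle genes (all genes 5.34%). With INS + VD higher, this held for 0 genes in both lists (all genes 5.65%).

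Among other immediate early genes, Btg2 and Ier2 were lower in INS + VD. Btg2 was at 30.6, 20.4 and 11 FPKM in CK and 7.22, 4.5 and 9.04 FPKM in the INS + VD libraries (log2 fold change -1.39, SE 0.41, unadjusted p = 0.0123). Ier2, whose promoter holds a cAMP response element, was at 27.8, 20.6 and 26.2 FPKM in CK and 15.6, 7.88 and 7.26 FPKM in the INS + VD libraries (log2 fold change -1.27, SE 0.31, unadjusted p = 0.00508). The activity genes Arc and Egr1 overlapped between the groups. Arc was at 123, 179 and 6.53 FPKM in CK and 162, 4.66 and 59.3 FPKM in the INS + VD libraries. Egr1 was at 137, 158 and 21.6 FPKM in CK and 154, 10.9 and 93.7 FPKM in the INS + VD libraries. Both were low in CK replicate 3 and INS + VD replicate 2, the same libraries in which hippocampal excitatory neuron markers were low. The immediate early list had a median of -0.31, which was -0.71 with CK replicate 3 left out, -0.56 with INS + VD replicate 1 left out, -0.51 with INS + VD replicate 3 left out, -0.04 with CK replicate 2 left out and 0.21 with INS + VD replicate 2 left out. It was -0.29 without both CK replicate 3 and INS + VD replicate 2. There 11 of 39 genes were lower at the unadjusted p against 3 in all 6 libraries (all genes in either direction 858 against 628). The glutamatergic synapse list, at -0.24, turned to 0.17 without INS + VD replicate 2.

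Nuclear genes of oxidative phosphorylation were lower by a small amount. Of 71 rows of these genes 65 had a lower mean (all genes 50.8%), with a median of -0.25 and 11 lower at the unadjusted p (all genes 1.66%). Without CK replicate 3 and INS + VD replicate 2 the median was -0.31 with 29 genes. Over all genes, the number at the unadjusted p in either direction was then 858 against 628 in all 6 libraries. The median was -0.45 with INS + VD replicate 2 left out and -0.12 with CK replicate 3 or INS + VD replicate 3 left out. The number at the unadjusted p was 1 with INS + VD replicate 3 left out, 2 with CK replicate 3 or INS + VD replicate 1 left out, 7 with CK replicate 1 or CK replicate 2 left out and 25 with INS + VD replicate 2 left out. Uqcr11, a subunit of complex III, was at 304, 311 and 291 FPKM in CK and 181, 174 and 185 FPKM in the INS + VD libraries (log2 fold change -0.74, SE 0.15, unadjusted p = 0.00187). Cox6c, a subunit of cytochrome c oxidase, was at 82.3, 87.5 and 159.8 FPKM in CK and 38, 74.4 and 28.9 FPKM in the INS + VD libraries (log2 fold change -1.25, SE 0.41, unadjusted p = 0.0207). Atp5f1e, a subunit of the ATP synthase, was at 62.1, 64.5 and 118 FPKM in CK and 30.4, 52.6 and 32.5 FPKM in the INS + VD libraries (log2 fold change -1.04, SE 0.33, unadjusted p = 0.0172). Cytosolic ribosomal protein genes had a median of -0.30 with 3 of 76 rows lower at the unadjusted p (all genes 1.66%). Without the 2 libraries the median was -0.32 with 30 rows (all genes in either direction 858 against 628). The median was -0.48 with INS + VD replicate 2 left out, -0.13 with INS + VD replicate 3 left out and -0.09 with CK replicate 3 left out, and the number of rows 18 with INS + VD replicate 2 left out. Rpl21, a protein of the large subunit, was at 91.4, 106 and 116 FPKM in CK and 46.9, 49.7 and 36 FPKM in the INS + VD libraries in one row and 31.4, 36.7 and 39.5 FPKM in CK and 17.4, 18.8 and 13.2 FPKM in the INS + VD libraries in another. A further row of Rpl21 had a higher mean in INS + VD (log2 fold change 0.49, unadjusted p = 0.336), and as copies of it can share fragments the rows are uncertain. Among 13 mitochondrially encoded genes, chosen after the values were seen, 2 met the unadjusted p. Mt-nd3 was at 261, 397 and 493 FPKM in CK and 130.4, 166 and 129 FPKM in the INS + VD libraries (log2 fold change -1.39, SE 0.27, unadjusted p = 0.00165). Mt-nd4l was at 683, 1114 and 1187 FPKM in CK and 278, 423 and 329 FPKM in the INS + VD libraries (log2 fold change -1.51, SE 0.29, unadjusted p = 0.00156). Their neighbour Mt-nd4 was at 819.9, 847 and 542 FPKM in CK and 879, 1052 and 984 FPKM in the INS + VD libraries, higher in INS + VD. Mt-nd3 and Mt-nd4l span 348 and 297 bases in the table. Among all genes of at most 500 bases and at least 1 FPKM, 34 of 344 were lower at the unadjusted p (all genes 1.66%) and 8 were higher (all genes 2.68%). Their median was -0.121, and the part of gene length in the lower values of short genes was not tested.

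**Figure D5:**
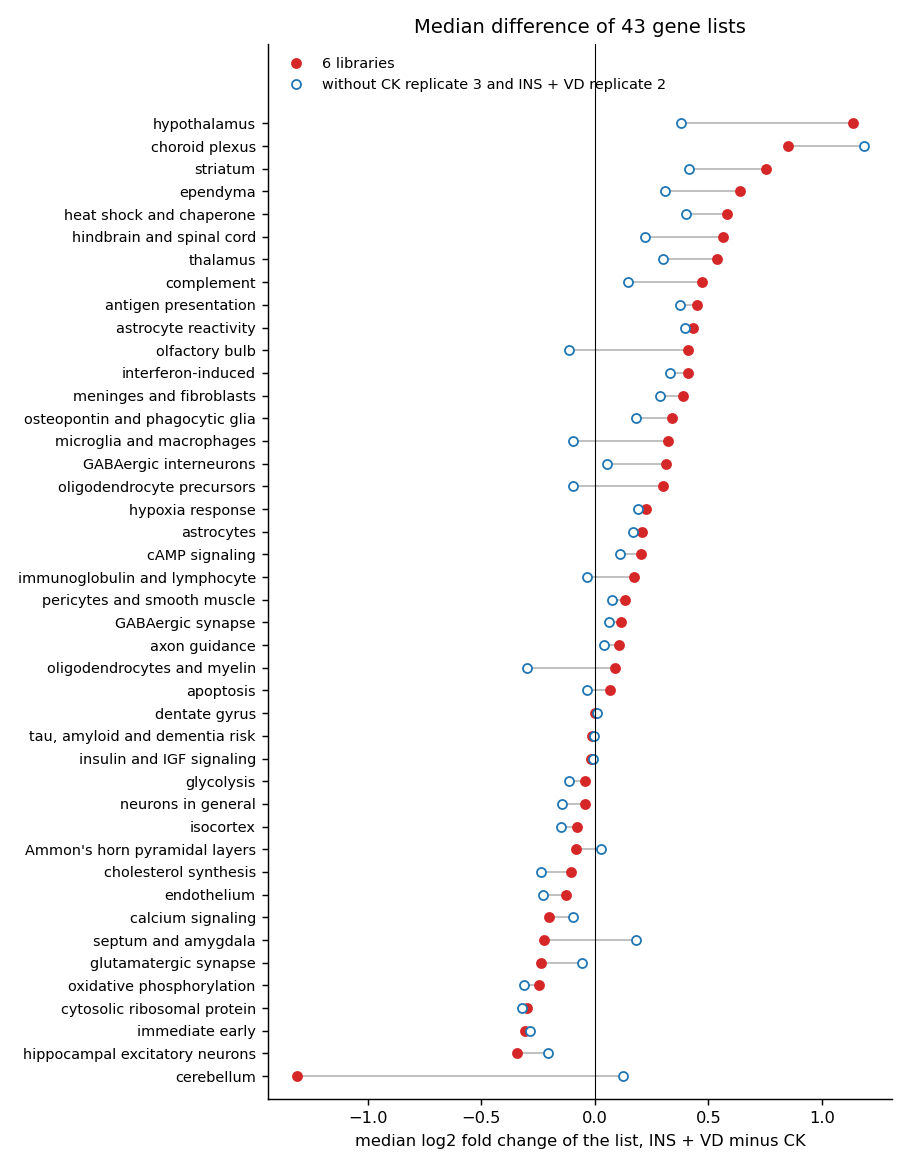
Median log2 fold change of INS + VD over CK (x axis) for 43 gene lists (y axis), from all 6 libraries (filled) and without CK replicate 3 and INS + VD replicate 2 (open). The cerebellum list moved from -1.31 to 0.13, whereas the heat shock and chaperone list stayed above 0 at 0.58 and 0.40.

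The insulin signaling list lay near 0. The list of 39 genes had a median of -0.02 (-0.01 without CK replicate 3 and INS + VD replicate 2), with 0 higher and 2 lower at the unadjusted p. Without the 2 libraries 4 were higher and 0 lower, and the median ran from -0.06 to 0.07 when 1 library was left out. Insr, the insulin receptor, was at 6.64, 6.18 and 7.35 FPKM in CK and 6.36, 5.56 and 8.8 FPKM in the INS + VD libraries. Igf1r, the receptor of insulin-like growth factor 1, was at 3.43, 3.14 and 4.76 FPKM in CK and 4.81, 3.28 and 5.59 FPKM in the INS + VD libraries. The groups overlapped for both. Irs2, an adaptor of these receptors, was at 17.7, 25 and 20.3 FPKM in CK and 34.4, 19.7 and 41.3 FPKM in the INS + VD libraries (log2 fold change 0.53, SE 0.30, unadjusted p = 0.124). Igf2, a ligand also made by meninges, was at 11.7, 19.4 and 11.6 FPKM in CK and 35.5, 19.5 and 16.7 FPKM in the INS + VD libraries (log2 fold change 0.68, SE 0.34, unadjusted p = 0.0889). The kinases Akt2 and Pdpk1 met the unadjusted p at log2 fold changes of -0.99 (SE 0.39) and -0.45 (SE 0.18).

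Among genes whose proteins the study stained or measured, Gfap is given above, and Mapt and App had fold changes near 0. Mapt, which encodes tau, was at 74, 69.2 and 65.9 FPKM in CK and 68.4, 64.7 and 77.8 FPKM in the INS + VD libraries (log2 fold change 0.01, SE 0.15, unadjusted p = 0.954). App, the amyloid precursor, was at 602, 555 and 448 FPKM in CK and 570.3, 520.1 and 590.2 FPKM in the INS + VD libraries (log2 fold change 0.07, SE 0.20, unadjusted p = 0.717). Among the genes the study tested by PCR, the largest differences belonged to Itpr1, the inositol trisphosphate receptor, and Adcy1, an adenylyl cyclase. Itpr1 was at 63.4, 60.9 and 287 FPKM in CK and 65.3, 13.9 and 40.1 FPKM in the INS + VD libraries. Adcy1 was at 83.9, 103 and 292 FPKM in CK and 99.2, 15.2 and 59.5 FPKM in the INS + VD libraries. Both were highest in CK replicate 3 and lowest in INS + VD replicate 2, with log2 fold changes of -1.61 and -1.57 that became -0.27 and -0.27 without these libraries. Atp2b3, a plasma membrane calcium pump, was at 24.7, 22.8 and 106 FPKM in CK and 28.5, 26.5 and 29.2 FPKM in the INS + VD libraries. Shank3, a postsynaptic scaffold, was at 41.5, 40.8 and 47.6 FPKM in CK and 55.9, 13.9 and 54.4 FPKM in the INS + VD libraries. Htr5a, Trpc5, Cxcr4, Mpdz and Tapbp had log2 fold changes of -0.14, 0.03, -0.26, 0.38 and 0.43, none at the unadjusted p. Vav1, Grin3b, Mettl11b and Mfsd4a differed by -0.02, -0.05, 0.23 and -0.93, also without reaching it. Other genes named by the study, Frmd7, Agtr1a, Asb15, Asb16, Nkx2-1, Ppm1j, Sfrp5 and Prss56, were too low for the fit. Frmd7 was at 0.0191, 0.0196 and 0 FPKM in CK and 0.0396, 0 and 0.039 FPKM in INS + VD, with VD at 6.71, 0.114 and 24.6 FPKM. Nkx2-1 and Ppm1j, the 2 of these whose groups did not overlap, each had an exact two-sided permutation p of 0.1, the smallest that 3 against 3 libraries allow. Nkx2-1 was at 0.145, 0.0746 and 0 FPKM in CK and 0.402, 7.66 and 0.964 FPKM in INS + VD, and Ppm1j at 0.441, 0.506 and 6.1 FPKM in CK and 0.188, 0.255 and 0.106 FPKM in INS + VD.

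Apoptosis genes had a median of 0.07 (-0.03 without CK replicate 3 and INS + VD replicate 2), with 1 higher and 3 lower of 32 at the unadjusted p. The number lower was 0 with INS + VD replicate 2 or INS + VD replicate 3 left out and 1 with INS + VD replicate 1 left out, and the number higher 0 with INS + VD replicate 1 or INS + VD replicate 2 left out and 3 with INS + VD replicate 3 left out. The lower ones were Bax, an activator of cell death at 10.8, 11.3 and 18 FPKM in CK and 7.45, 8.21 and 8.49 FPKM in the INS + VD libraries, Bcl2l11, which encodes BIM, and Birc2, an inhibitor of apoptosis. The higher one was Cdkn1a, the cell cycle inhibitor p21, at 6.78, 7.0 and 4.42 FPKM in CK and 16.6, 18 and 7.48 FPKM in the INS + VD libraries (log2 fold change 1.02, SE 0.36, unadjusted p = 0.0269). The members at the unadjusted p thus include genes that promote and genes that oppose cell death.

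Few genes of the pathways the study discussed met the unadjusted p, and the direction of some of these lists depended on single libraries. The calcium signaling list had a median of -0.20 (-0.09 without the 2 libraries) with 0 higher and 2 lower of 55 genes at the unadjusted p, and the cAMP signaling list 0.20 (0.11) with 1 of 44 higher. That gene was Drd2, the dopamine D2 receptor, at 4.92, 1.89 and 0.427 FPKM in CK and 4.34, 17.8 and 9.57 FPKM in the INS + VD libraries, which is also a striatal marker. Axon guidance genes had a median of 0.11 (0.04) and glutamatergic synapse genes of -0.24 (-0.06), with no gene at the unadjusted p in either. GABAergic synapse genes had a median of 0.11 (0.06) with 1 of 24 higher. With 1 library left out the medians ran from -0.43 to -0.09 for calcium signaling, 0.08 to 0.36 for cAMP signaling, -0.05 to 0.21 for axon guidance, -0.44 to 0.17 for the glutamatergic synapse and -0.05 to 0.18 for the GABAergic synapse.

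General neuron markers had a median of -0.04 (-0.14 without CK replicate 3 and INS + VD replicate 2), and excitatory neuron markers of -0.34 (-0.21). With 1 library left out they ran from -0.17 to 0.12 and -0.82 to 0.19. The oligodendrocyte list moved from 0.09 to -0.30 without the 2 libraries. Without INS + VD replicate 3 it was 0.74, with 29 of 29 genes higher. Of these genes 18 were at the unadjusted p, against 0 in all 6 libraries (all genes in either direction 818 against 628). Without INS + VD replicate 1 it was -0.25. Its mean level was 4.48 in INS + VD replicate 3, the lowest of the 6 libraries, and 6.29 and 6.40 in the other 2. Meningeal genes had a median of 0.39 (0.29) with 3 of 25 higher at the unadjusted p. Their median was 0.12 with CK replicate 3 left out and 0.63 with CK replicate 2 left out, and the number higher 0 with INS + VD replicate 1 left out, 1 with CK replicate 1, CK replicate 3 or INS + VD replicate 3 left out and 7 with CK replicate 2 left out. Hypothalamus, thalamus and striatum markers had medians of 1.14, 0.54 and 0.75, and of 0.38, 0.30 and 0.41 without the 2 libraries, and the part of tissue composition in the gene differences was not tested.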

How the data were processed

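The authors calculated FPKM from reads placed on a genome with HISAT2, and the deposited FPKM table with rat Ensembl identifiers was used. The counting program is not given in the sources used here, and the submitters' processing notes name a mouse build, so table positions carry no build. Values were taken as log2(FPKM + 1), which understates the fold changes of low genes. Genes with 0.5 FPKM or more in 3 or more of the 6 CK and INS + VD libraries were fitted with limma 3.58.1 (trend of the prior spread, no replicate block), with Benjamini-Hochberg adjustment over 14486 genes. Genes outside the fit were compared by an exact permutation test, two-sided. The members and the 43 gene lists (1186 of 1249 genes found in the table) were chosen with earlier results of these data known. Named genes are, per direction, the 10 largest differences and the 10 smallest p among genes at the unadjusted p of at least 1 FPKM whose groups do not overlap, up to 4 genes of a list with the smallest p, the 3 most abundant genes of a list, and genes named by the study. Not every gene that met these rules is named, and other genes were chosen after their values were seen. Promoters are from RefSeq (GRCr8), matched by symbol. Alternatives changed the pseudocount, filter, scaling, prior spread, weights, block and libraries. VD libraries were set beside the comparison only.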

Additional observations from a re-analysis of the deposited data

How the results depend on the processing

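No gene passed the adjusted test in any fit except the one with library weights, where 3 genes did (U6, Ifi27 and Apold1). CK replicate 3 had the lowest weight there. U6, which is not described above, was lower in INS + VD. Its log2 fold change ran from -1.83 to -1.68 when libraries were left out. At the unadjusted p with the fold change minimum, 187 genes were called. The count was 315 with a pseudocount of 0.1, 628 with no minimum fold change, 135 without CK replicate 3 and INS + VD replicate 2, 145 to 317 when 1 library was left out, and 135 with all 9 libraries in the fit. Of these calls 65.2% were higher in INS + VD, 80.1% when INS + VD replicate 3 was left out and 48.3% when INS + VD replicate 2 was. Same-numbered CK and INS + VD libraries did not deviate together from their group means (correlations of 0.04, -0.30 and -0.32). With 3 libraries per group, of which CK replicate 3 and INS + VD replicate 2 stood apart, this cannot decide whether the numbers pair the samples. A fit with the replicate block called 205 genes and 0 at the adjusted p, and 9 of the 29 chaperone genes at the unadjusted p against 14. When 1 library, or CK replicate 3 with INS + VD replicate 2, was left out, the log2 fold change changed its sign for App (-0.048 to 0.17), Arc (-1.97 to 0.85), Atp2b3 (-0.85 to 0.27), Cxcr4 (-0.54 to 0.064), Egr1 (-1.40 to 0.62), Grin3b (-0.18 to 0.11), Htr5a (-0.45 to 0.18), Insr (-0.15 to 0.20), Mapt (-0.065 to 0.066), Shank3 (-0.62 to 0.41), Slc17a7 (-4.17 to 0.062), Spp1 (-0.091 to 2.30), Trpc5 (-0.18 to 0.14), Vav1 (-0.25 to 0.095). With library weights it was of the other sign for Atp2b3 (0.19), Cxcr4 (0.087), Grin3b (0.079), Mapt (-0.021), Shank3 (0.18), Trpc5 (-0.25). With pseudocount 0.1 it was of the other sign for Vav1 (0.071). With median centring it was of the other sign for Vav1 (0.0048). The cause was not tested.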
